A study of Mus musculus with 28 samples.

Results

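The comparison described here sets the hippocampus of 3xTg mice given dasatinib plus quercetin (DQ) against that of 3xTg mice given the vehicle labelled VehD. Its members were chosen by their labels, with no measured value: 4 DQ libraries and 4 VehD libraries, 8 of the 28 in the series. All animals were female, all 8 libraries carry the 3xTg genotype, and each library is a column of raw read counts per gene from bulk hippocampal RNA. The other groups used for context are 3xTg with navitoclax (ABT263, labelled NAVI), 3xTg with the vehicle labelled VehN, and mice of the genotype labelled BL6/129, taken as wild type (WT), with DQ, NAVI or vehicle (Veh), with 4 libraries each. The labels do not state age, dose, route or schedule, and VehD was taken as the partner of DQ from the last letter of its label. The 3xTg line carries human APP and MAPT transgenes with disease mutations, driven in neurons by a mouse Thy1 regulatory element.

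Dasatinib is an inhibitor of ABL and SRC family kinases and of several receptor kinases, and quercetin is a plant flavonol. The pair is used as a senolytic, a treatment meant to kill senescent cells. Senescent cells have left the cell cycle for good, usually express the inhibitors p16 (from Cdkn2a) or p21 (from Cdkn1a), and can secrete cytokines, chemokines and proteases. In the adult hippocampus most neurons no longer divide, and the cells that do are chiefly progenitors of the dentate gyrus, oligodendrocyte precursors and microglia.

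The 4 DQ libraries held between 34665131 and 50440096 counts and the 4 VehD libraries between 39955040 and 50231491. Levels below are CPM, counts scaled to a fixed library size with the TMM factors of edgeR. Dentate granule cell markers of the hippocampus had a summed level of 644.7 to 832.8 CPM with DQ and 636.7 to 816.0 CPM with VehD. The series holds no other tissue to set beside them, so these levels do not test the purity of the dissection. Markers of neighbouring tissue differed between libraries. A score, the mean log2 CPM of a list relative to all 28 libraries, was used to follow them. For 20 thalamus and habenula markers it was -0.42, -0.11, -0.43 and -0.45 in DQ libraries 1 to 4, and 0.96, -0.65, -0.55 and 0.90 in VehD libraries 1 to 4. VehD libraries 1 and 4 thus stood above the other 6. For 17 choroid plexus markers the score was -2.07, -0.16, -1.34 and 1.40 in the DQ libraries and 1.40, -2.63, -2.31 and 2.21 in the VehD libraries, so that 1 DQ and 2 VehD libraries were high. In bulk tissue, fewer cells of a type and less RNA per cell cannot be told apart.

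**Figure D1:**
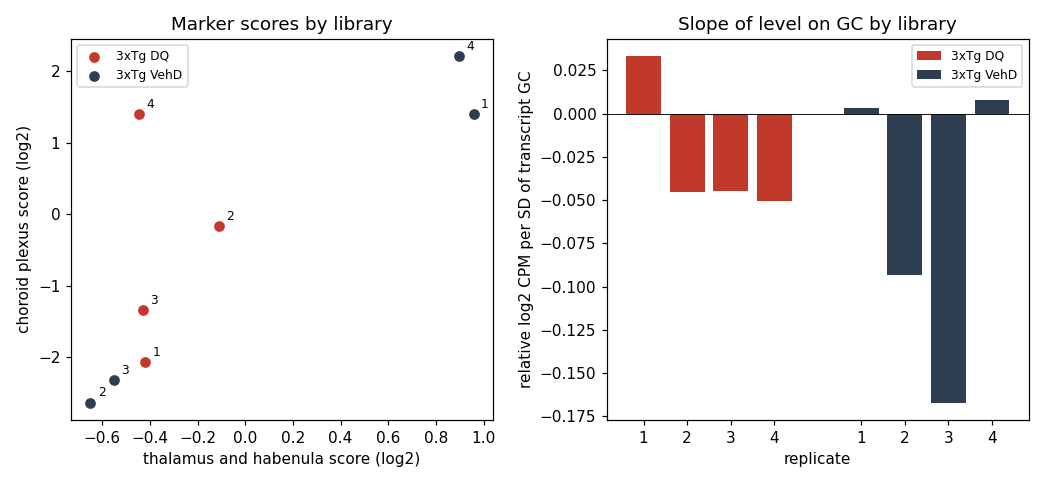
Left, the thalamus and habenula score against the choroid plexus score (both log2, relative to the mean of 28 libraries), with the replicate number beside each point; VehD libraries 1 and 4 lie at the upper right. Right, bars give the slope of relative log2 CPM (each gene minus its mean over 28 libraries) per SD of transcript GC content in each library by replicate, lowest in VehD library 3 at -0.17.

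No gene passed the test of DQ against VehD in 3xTg. Of 16369 genes tested, 0% passed an adjusted p of 0.05 (edgeR quasi-likelihood test, Benjamini-Hochberg adjustment, 0 genes; the smallest adjusted p was 1). At an unadjusted p under 0.05 there were 299 genes, 125 higher (0.764% of genes tested) and 174 lower (1.06%) with DQ. These 299 are a smaller share than the 0.05 expected where no gene differs. At these shares a short list can hold no such gene without being unlike all genes tested. Of all genes tested, 50.9% had a negative log2 fold change. DESeq2 also called 0 genes, with 320 at an unadjusted p under 0.05, and limma-voom with quality weights called 0, with 498. In CPM, all DQ libraries lay above all VehD libraries for 183 genes (1.12%) and below them for 146 (0.892%). Where no gene differs, each of these orders arises in 1 of the 70 assignments of the 8 libraries, a larger share than either. Genes with a mean of log2 CPM over 3 had a median 95% interval of ± 0.19 around their log2 fold change, and for 95.9% of these 10539 genes the interval lay within a 1.5-fold change in either direction. For the 2307 genes under log2 CPM 0 the median interval was ± 0.85, and only 3.12% were bounded in that way.

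**Figure D2:**
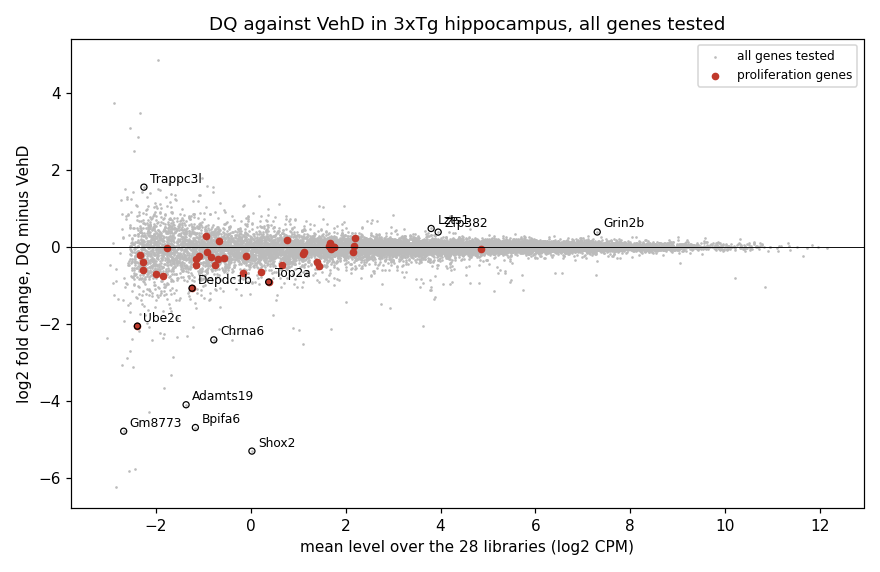
Each point is 1 of 16369 genes, with its mean level over 28 libraries (log2 CPM) on the x axis and its log2 fold change, DQ minus VehD, on the y axis; red points are 38 proliferation genes and circled points are named genes. Spread widens at low levels, and Ube2c (-2.05), Gm8773 (-4.78) and Bpifa6 (-4.69) all lie at low levels.

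Among the 20 genes with the smallest p, 3 belonged to a list of proliferation genes (Depdc1b, Ube2c and Rrm2), all lower with DQ, and the list member Top2a stood at place 21. Cep55 and Brip1, also among the 20, are not on the list and are described with these genes for their roles, a grouping made after the ranking was seen. All of these but Top2a had a mean under 50 counts over the 28 libraries, and none passed the adjusted threshold.

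Ube2c encodes the ubiquitin-conjugating enzyme that works with the anaphase-promoting complex to clear mitotic cyclins. It lies at chr2:164769929-164772902 in GRCm38. Its level was 0.0397, 0.0462, 0 and 0.0724 CPM in DQ libraries 1 to 4, against 0.0996, 0.109, 0.182 and 0.314 CPM in VehD libraries 1 to 4. These are 2, 2, 0 and 3 counts with DQ and 4, 5, 8 and 16 counts with VehD, and the groups did not overlap. The log2 fold change was -2.05 (SE 0.58, 95% interval -3.25 to -0.86, edgeR adjusted p = 1). The ratio of summed CPM, DQ over VehD, was 0.226, with a 95% exact interval of 0.0846 to 0.521 that covers counting error only. NAVI and VehN libraries averaged 0.214 ± 0.0495 and 0.207 ± 0.103 CPM (SD, n = 4 each), and all 8 of these libraries lay above the highest DQ library. In WT, Ube2c averaged 0.0989 ± 0.0588 CPM with DQ and 0.155 ± 0.0663 CPM with Veh (SD, n = 4 each).

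Depdc1b, a DEP domain protein with a role in entry into mitosis, lies at chr13:108316014-108389566. It had 0.238, 0.231, 0.204 and 0.314 CPM in the DQ libraries, against 0.398, 0.392, 0.637 and 0.648 CPM in the VehD libraries. The groups did not overlap, and the log2 fold change was -1.07 (SE 0.28, 95% interval -1.64 to -0.49, edgeR adjusted p = 1). Depdc1b differed between the vehicles of the 3xTg line by a similar amount: VehN averaged 0.244 ± 0.0638 CPM, close to DQ at 0.247 ± 0.0472, while VehD averaged 0.519 ± 0.143 (SD, n = 4 each). With VehN alone as the vehicle its log2 fold change was 0.02.

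Top2a, the topoisomerase that untangles replicated chromosomes, had 1.25, 0.993, 0.814 and 0.917 CPM with DQ against 1.92, 1.44, 2.21 and 1.92 CPM with VehD. All 4 DQ libraries were below all 4 VehD libraries, with a log2 fold change of -0.90 (SE 0.31). Rrm2, the small subunit of the ribonucleotide reductase that makes DNA precursors, had 0.755, 0.762, 0.640 and 0.628 CPM with DQ and 1.12, 0.980, 1.34 and 0.943 CPM with VehD. Its groups did not overlap either, at -0.65 (SE 0.21). Cep55, which acts at the midbody when daughter cells separate, had 0.159, 0.162, 0.116 and 0.121 CPM with DQ and 0.274, 0.370, 0.250 and 0.236 CPM with VehD. These 8 libraries held 4 to 8 counts of Cep55 with DQ and 11 to 17 with VehD. Brip1, a helicase of DNA repair, ran from 0.0872 to 0.159 CPM with DQ and from 0.177 to 0.432 CPM with VehD, without overlap, at -1.36 (SE 0.45). With DQ against Veh in WT the Brip1 value had the other sign, 0.61. Mki67, the gene of the Ki-67 antigen, overlapped between groups: 2.9, 2.29, 1.74 and 2.20 CPM with DQ against 2.79, 3.03, 3.75 and 3.20 CPM with VehD. DQ library 1 was above VehD library 1, and the log2 fold change was -0.48 (SE 0.17).

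**Figure D3:**
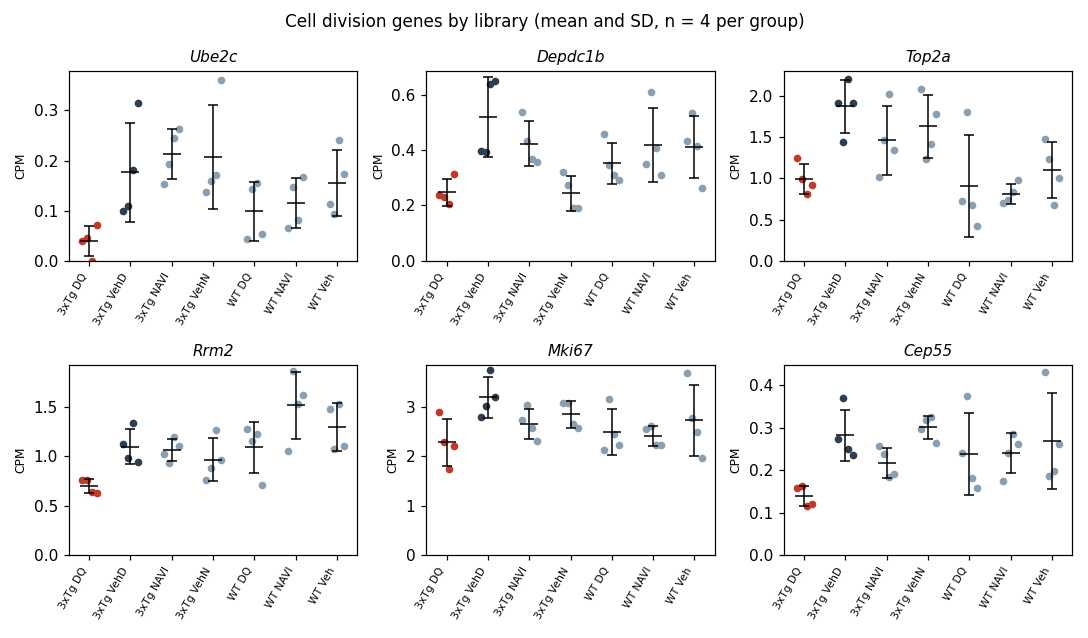
Level in CPM (y axis) of 6 cell division genes in each library of the 7 groups (x axis); bars are the mean and SD of 4 libraries, with DQ of 3xTg in red and VehD in dark blue. The red points of Ube2c, Depdc1b, Top2a, Rrm2 and Cep55 lie below all dark blue points, and for Depdc1b the VehN points lie as low as the red ones.

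Among the 40 genes of a proliferation list, 38 passed the low count filter, none was called, and 29 of 38 had a negative log2 fold change against 50.9% of all genes tested. The median was -0.23, and that of all genes tested was -0.00. At an unadjusted p under 0.05 were 7 members, all lower with DQ (Depdc1b, Ube2c, Rrm2, Top2a, Mki67, Ccna2 and Cenpf), against a background of 1.06% of genes lower. All 4 DQ libraries lay below all VehD libraries for 5 members, where 0.892% of genes did so. Depdc1b and Ube2c were known as leading genes of this contrast when the list was made, so its counts are a description. The members with the highest values were Cdc20 at 0.29 and Mcm5 at 0.23, neither past an unadjusted p of 0.05. The intervals were wide: for 12 of the 38 members the 95% interval lay within a 1.5-fold change. With only genes of a mean of at least 50 counts, the median of the members left was -0.04, and with VehN alone as the vehicle it was -0.05.

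The score of the list was 0.08, -0.11, -0.28 and -0.12 in DQ libraries 1 to 4 and 0.17, 0.06, 0.27 and 0.17 in VehD libraries 1 to 4. DQ library 1 overlapped the VehD range and the other 3 DQ libraries were below it. In the other 3xTg groups the score averaged 0.15 ± 0.07 with NAVI and 0.05 ± 0.05 with VehN (SD, n = 4 each). In WT it averaged -0.16 ± 0.20 with DQ, -0.05 ± 0.10 with NAVI and -0.06 ± 0.17 with Veh (SD, n = 4 each). For the same 38 genes in WT, DQ against Veh gave a median of -0.15, with 27 negative (71.1%, against 51.4% of all genes tested) and 2 lower at an unadjusted p under 0.05, where 2.04% of genes were. Of the 38, 24 were negative in both genotypes (63.2%, against 25.8% of all genes tested). The list median was -0.20 without VehD libraries 1 and 4, the libraries with a high thalamus score.

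**Figure D4:**
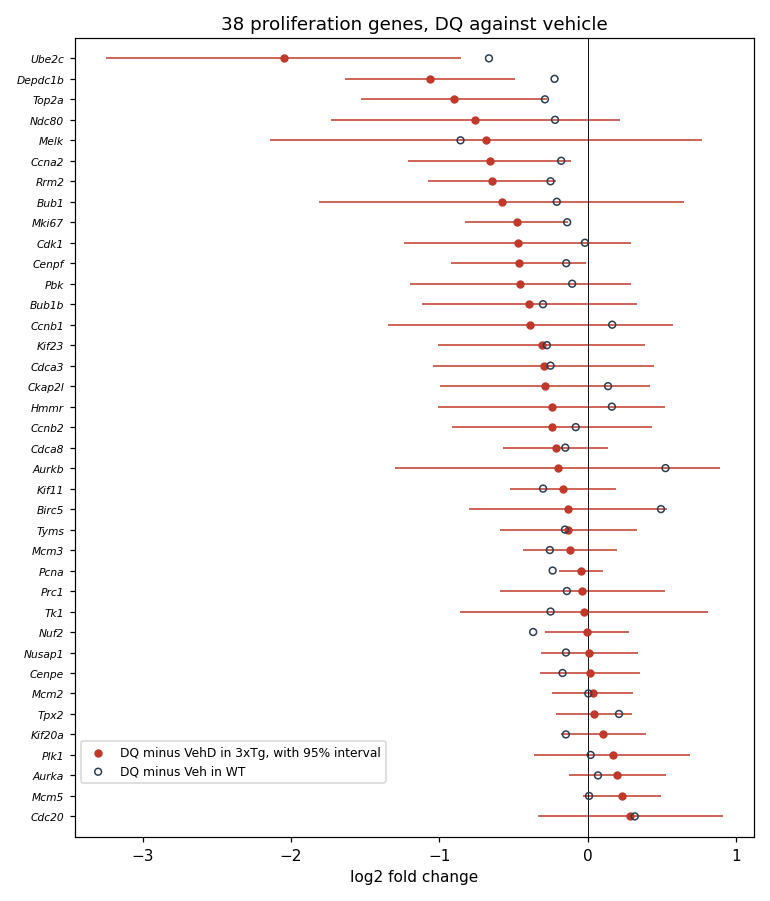
Log2 fold change (x axis) of 38 proliferation genes (y axis, sorted): red points with 95% intervals are DQ minus VehD in 3xTg, open circles are DQ minus Veh in WT. Of the red points 29 lie left of 0, and the interval of Ube2c runs from -3.25 to -0.86.

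The list of the anaphase-promoting complex and spindle checkpoint, to which Ube2c belongs, was evenly divided. Of its 27 genes 14 were negative, with a median of -0.00 and 2 members lower at an unadjusted p under 0.05 (background 1.06%); Ube2c is one of these. Of 17 tested genes of new and immature neurons, 5 were negative, with a median of 0.06 and none at an unadjusted p under 0.05.

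Transcription of many cell division genes in G2 and mitosis depends on a CHR element and on CCAAT boxes near the start site, which are bound by the DREAM complex and by NF-Y. The RefSeq promoters (GRCm38.p6, 250 bases before the start to 50 after) were found for 5 of the 7 members at an unadjusted p under 0.05, and all 5 are shown so that these letters can be read in them. Capitals mark TTTGAA or its reverse complement TTCAAA (CHR), and CCAAT or its reverse complement ATTGG. In Ube2c a CCAAT and an ATTGG overlap.
Ube2c, chr2:164769679-164769978, plus strand: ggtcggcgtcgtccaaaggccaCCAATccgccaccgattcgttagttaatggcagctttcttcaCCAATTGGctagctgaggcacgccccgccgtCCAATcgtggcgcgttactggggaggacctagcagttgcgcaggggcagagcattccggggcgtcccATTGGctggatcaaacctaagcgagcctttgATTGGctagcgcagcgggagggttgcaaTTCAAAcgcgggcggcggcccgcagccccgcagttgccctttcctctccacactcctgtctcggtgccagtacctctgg
Top2a, chr11:99024140-99024439, minus strand: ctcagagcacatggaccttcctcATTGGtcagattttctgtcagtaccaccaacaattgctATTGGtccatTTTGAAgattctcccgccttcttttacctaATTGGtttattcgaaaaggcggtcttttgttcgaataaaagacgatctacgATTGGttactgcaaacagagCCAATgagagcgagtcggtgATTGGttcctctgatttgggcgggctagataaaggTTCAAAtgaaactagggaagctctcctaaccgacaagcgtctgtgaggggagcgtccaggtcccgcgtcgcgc
Mki67, chr7:135716330-135716629, minus strand: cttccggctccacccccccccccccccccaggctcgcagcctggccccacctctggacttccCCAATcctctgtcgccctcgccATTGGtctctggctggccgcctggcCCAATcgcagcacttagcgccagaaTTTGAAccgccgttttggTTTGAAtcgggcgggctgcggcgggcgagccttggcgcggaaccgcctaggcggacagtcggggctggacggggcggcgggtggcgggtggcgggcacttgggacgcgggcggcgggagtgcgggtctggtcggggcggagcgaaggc
Cenpf, chr1:189688037-189688336, minus strand: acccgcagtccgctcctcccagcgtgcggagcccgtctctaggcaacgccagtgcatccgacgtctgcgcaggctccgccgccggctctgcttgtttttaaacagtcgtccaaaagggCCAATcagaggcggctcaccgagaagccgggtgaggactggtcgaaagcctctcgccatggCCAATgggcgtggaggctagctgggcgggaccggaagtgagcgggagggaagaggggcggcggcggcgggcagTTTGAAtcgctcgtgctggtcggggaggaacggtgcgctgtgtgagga
Rrm2, chr12:24708004-24708303, plus strand: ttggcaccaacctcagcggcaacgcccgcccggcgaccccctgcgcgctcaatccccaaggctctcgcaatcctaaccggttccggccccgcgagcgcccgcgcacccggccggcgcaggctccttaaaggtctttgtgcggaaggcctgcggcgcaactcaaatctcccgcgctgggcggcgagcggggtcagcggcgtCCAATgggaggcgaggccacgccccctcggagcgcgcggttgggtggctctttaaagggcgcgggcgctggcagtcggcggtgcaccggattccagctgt

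The Ube2c promoter held 1 CHR match and 6 CCAAT matches, Top2a 2 and 6, Mki67 2 and 3, Cenpf 1 and 2, and Rrm2 0 and 1. Among the 33 promoters found for 32 of the proliferation genes tested, 60.6% held a CHR match and 78.8% a CCAAT match. Of the 15390 promoters found for 12135 of the genes tested, 12.2% held a CHR match and 37.0% a CCAAT match. Both kinds of match stood together in 57.6% of the promoters of the proliferation genes and in 4.73% of those of all genes tested. The list was drawn up from known cell division genes, so this is a description of the list and not of the treatment.

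Gm8773, Bpifa6, Chrna6 and Adamts19 were also among the 20 genes with the smallest p, on the low side. Gm8773 had 0, 1, 0 and 0 counts in the DQ libraries against 20, 6, 1 and 16 in the VehD libraries. The ratio of summed CPM was 0.0248, with a 95% exact interval of 0.000615 to 0.146. This interval covers counting error only and not the spread between the VehD libraries. Bpifa6, of the BPI fold family, had 1, 4, 1 and 2 counts with DQ and 115, 88, 16 and 3 counts with VehD, so that the VehD libraries spanned most of the difference themselves. Chrna6, a nicotinic acetylcholine receptor subunit known from the habenula and dopamine neurons, had 0.0993, 0.115, 0.0291 and 0.121 CPM with DQ against 0.722, 0.196, 0.228 and 0.884 CPM with VehD. Its groups did not overlap, and its high libraries were VehD 1 and 4. Without these libraries, which have the high thalamus score, its log2 fold change was -1.15, against -2.41 (SE 0.78) with them. Adamts19, a secreted metalloprotease, followed the same libraries, with 2, 1, 0 and 2 counts with DQ and 23, 2, 5 and 73 counts with VehD. Its log2 fold change of -4.10 (SE 1.37) was -1.33 without VehD libraries 1 and 4.

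Snai2, a transcriptional repressor of epithelial and mesenchymal cell programmes, ran from 0.457 to 0.931 CPM with DQ and from 0.847 to 1.36 CPM with VehD. The groups overlapped in 1 library of each, and the log2 fold change was -0.76 (SE 0.23). Snrpf, an Sm protein of the spliceosome, ran from 1.31 to 1.96 CPM with DQ and from 1.92 to 2.53 CPM with VehD, at -0.48 (SE 0.16). Arhgef39, a guanine nucleotide exchange factor, ran from 0.0462 to 0.193 CPM with DQ and from 0.174 to 0.324 CPM with VehD, at -1.20 (SE 0.40). Gm16938 ran from 1.15 to 1.83 CPM with DQ and from 1.83 to 2.34 CPM with VehD.

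The thalamus and habenula markers themselves lay lower with DQ in 16 of 20, with a median of -0.48 and 5 lower at an unadjusted p under 0.05 (background 1.06%). Shox2, a homeobox factor of thalamic neurons, had 0, 2, 2 and 3 counts with DQ against 144, 3, 0 and 172 counts with VehD. Its log2 fold change was -5.30 (SE 1.90) over all libraries and 0.30 without VehD libraries 1 and 4. Gbx2, another thalamic homeobox factor, stood at -3.65 (SE 1.31), and at 1.66 without these libraries. Tcf7l2, a Wnt pathway factor abundant in thalamus, had 4.67, 4.97, 4.91 and 4.80 CPM with DQ against 41.4, 4.34, 4.62 and 30.1 CPM with VehD, and its value without VehD libraries 1 and 4 was 0.11. Rgs16, a regulator of G protein signalling, was at -1.36 (SE 0.53) and at 0.07 without these libraries. The median of all 17 choroid plexus genes tested was -0.83, with none at an unadjusted p under 0.05. It was 0.15 without VehD library 4 and 2.78 without VehD libraries 1 and 4.

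On the high side, the leading gene was Lzts1, whose protein (also called PSD-Zip70) is a component of the postsynaptic density and was first described as a tumour suppressor. It lies at chr8:69132659-69184249. Lzts1 had 17.8, 18.9, 14.6 and 12 CPM in DQ libraries 1 to 4, against 13, 11.4, 9.58 and 11.1 CPM in VehD libraries 1 to 4. DQ library 4 lay below VehD library 1, so that the groups overlapped. The log2 fold change was 0.49 (SE 0.14, 95% interval 0.20 to 0.77, edgeR adjusted p = 1). In the other groups Lzts1 averaged 15.9 ± 1.45 CPM with NAVI and 10.6 ± 1.27 CPM with VehN in 3xTg, and 14.9 ± 1.27 with DQ, 13.7 ± 2.13 with NAVI and 15.1 ± 2.34 CPM with Veh in WT (SD, n = 4 each). In the separate libraries of VehN 3xTg against WT Veh, Lzts1 was lower, at -0.50 (edgeR adjusted p = 0.0223). The 7 tested relatives of Lzts1 and Depdc1b, these genes included, had a median of 0.08, and 0 of them were called.

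Grin2b, the GluN2B subunit of NMDA receptors, had 208, 232, 181 and 155 CPM with DQ against 176, 156, 134 and 124 CPM with VehD. DQ library 4 lay below 2 VehD libraries, and the log2 fold change was 0.40 (SE 0.15). Zfp382, a KRAB zinc finger protein, had 18.4, 19.3, 19.0 and 13.9 CPM with DQ against 16, 12.9, 13.3 and 11.6 CPM with VehD, at 0.39 (SE 0.12). Again DQ library 4 was the low one and overlapped VehD. Grasp (tamalin), a scaffold that binds group I metabotropic glutamate receptors, had 37.9, 37.1, 35.6 and 35.9 CPM with DQ and 29.8, 31.9, 32 and 31.1 CPM with VehD. Its groups did not overlap, at 0.23 (SE 0.08), and with the trend of level on GC content removed it stood at 0.12. Igsf3, an immunoglobulin superfamily membrane protein, ran from 21 to 23.3 CPM with DQ and from 16.5 to 20.7 CPM with VehD, at 0.26 (SE 0.09), but at -0.09 with VehN alone as the vehicle. Gm5607 ran from 15.9 to 29.0 CPM with DQ and from 14.9 to 16.6 CPM with VehD. Trappc3l, a relative of a TRAPP vesicle tethering subunit, had 7 to 16 counts with DQ and 1 to 6 with VehD. Stmnd1, a stathmin domain protein, had 25 to 62 counts with DQ and 12 to 29 with VehD; neither overlapped when scaled to CPM.

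**Figure D5:**
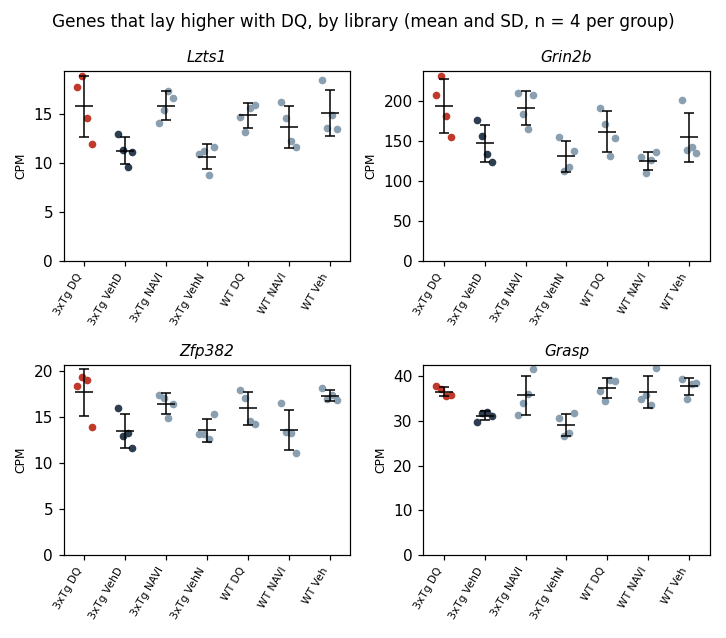
Level in CPM (y axis) of 4 genes that lay higher with DQ, in each library of the 7 groups (x axis); bars are the mean and SD of 4 libraries. Lzts1 averages 15.8 CPM with DQ and 11.3 CPM with VehD, and of these genes Grasp is the one whose DQ and VehD points do not overlap.

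All 28 postsynaptic density genes had a positive log2 fold change, where 8037 of 16369 genes tested did. Their median was 0.09, with a range of 0.00 to 0.49. At an unadjusted p under 0.05 were 2 (Lzts1 and Grin2b), where 0.764% of genes were higher. Lzts1 was known as a leading gene of this contrast when the list was made, so these counts are a description. For 0 of the 28 did all DQ libraries lie above all VehD libraries, near the background of 1.12%. Dlg3, a scaffold of the PSD-95 family, was at 0.08 (SE 0.05). The 95% interval lay within a 1.5-fold change for 26 of the 28. In WT, the same genes had a median of 0.00 with DQ against Veh, with 14 negative. The list score was 0.08, 0.13, 0.01 and -0.01 in the DQ libraries and -0.07, 0.04, -0.10 and -0.10 in the VehD libraries, and the groups overlapped.

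The dependence of level on transcript GC content also differed between these libraries. The slope of log2 CPM, relative to each gene's mean over 28 libraries, per SD of GC was 0.03, -0.05, -0.04 and -0.05 in DQ libraries 1 to 4 and 0.00, -0.09, -0.17 and 0.01 in VehD libraries 1 to 4. Across genes, GC content and the DQ log2 fold change had a Spearman correlation of 0.286, which describes genes of the same 8 libraries and not replicates. With the GC trend removed the median of the postsynaptic genes was 0.07, with 25 of 28 positive, and that of the proliferation genes was -0.21.

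No gene of the senescence programme that passed the low count filter was at an unadjusted p under 0.05. With 0.764% of all genes tested higher and 1.06% lower at that threshold, 0 is near the background. Cdkn1a averaged 9.72 ± 0.96 CPM with DQ and 9.95 ± 1.66 CPM with VehD (SD, n = 4 each), at -0.03 (95% interval -0.48 to 0.42). Of 17 senescence regulators 16 passed the filter, with a median of -0.05 and a range of -0.38 to 0.14. The interval lay within a 1.5-fold change for 13 of the 16. Cdkn2d, the p19 inhibitor of CDK4 and CDK6, ran without overlap, averaging 35.2 ± 1.02 CPM with DQ and 32 ± 2.38 CPM with VehD (SD, n = 4 each), at 0.14 (SE 0.08). Glb1, the lysosomal galactosidase whose activity marks senescent cells, was at -0.19 (SE 0.11), Cdkn2b, the p15 inhibitor, at -0.38 (SE 0.33), and Cdkn1b, the p27 inhibitor, at 0.06 (SE 0.06).

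Cdkn2a, which encodes p16 and, from another reading frame, Arf, did not pass the low count filter. It had 2, 1, 0 and 2 counts in DQ libraries 1 to 4 against 5, 4, 3 and 8 counts in VehD libraries 1 to 4. The means were 0.0278 ± 0.0213 CPM with DQ and 0.109 ± 0.0396 CPM with VehD (SD, n = 4 each), without overlap. The difference was -0.0815 CPM, with a two-sided exact permutation p = 0.0286, the smallest that the 70 assignments of 8 libraries can give. Cdkn2a was looked at because of its role and its counts in this series were known, so this p is not independent evidence. The ratio of summed CPM was 0.267, with a 95% exact interval of 0.0783 to 0.733 that covers counting error only. In the other 3xTg vehicle, VehN, Cdkn2a averaged 0.0460 ± 0.0494 CPM (SD, n = 4), and 3 of its 4 libraries were below every VehD library. In WT it averaged 0.0203 ± 0.0136 CPM with DQ and 0.0628 ± 0.0354 CPM with Veh (SD, n = 4 each).

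Of 44 genes of the senescence-associated secretory phenotype, 39 passed the filter. Of these 28 were negative (71.8%, against 50.9% of all genes tested), and the median was -0.11. Ccl8, a monocyte chemokine, averaged 0.232 ± 0.241 CPM with DQ and 0.562 ± 0.304 CPM with VehD, and Ccl2, its relative, 0.116 ± 0.0481 with DQ and 0.238 ± 0.143 CPM with VehD (SD, n = 4 each). Timp1, an inhibitor of metalloproteases, averaged 0.711 ± 0.0379 CPM with DQ and 1.07 ± 0.233 CPM with VehD (SD, n = 4 each) and did not overlap, at -0.59 (SE 0.40). Il18, a cytokine of the inflammasome, was at -0.16 (SE 0.10). Without VehD libraries 1 and 4 the median of the list was 0.07. In WT the same genes had a median of 0.04.

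None of the tested kinases that dasatinib binds was at an unadjusted p under 0.05. Of all genes tested 0.764% were higher and 1.06% lower at that threshold, so 0 is near the background. Of 41 listed, 38 were tested, with a median of 0.00, a range of -0.48 to 0.30, and for 29 the 95% interval lay within a 1.5-fold change. Gak, a kinase of clathrin uncoating, was at 0.07 (SE 0.05), Lck, the SRC family kinase of T cells, at 0.30 (SE 0.21), Srms, a SRC relative, at -0.48 (SE 0.39), and Ephb2, an ephrin receptor, at 0.16 (SE 0.13). Src itself averaged 106 ± 7.82 CPM with DQ and 95.2 ± 11.4 CPM with VehD (SD, n = 4 each), at 0.15 (95% interval -0.12 to 0.42). The ephrins, ligands of the EPH receptors, were positive in 7 of 8, where 8037 of 16369 genes tested were. Their median was 0.16, with none at an unadjusted p under 0.05. Targets of p53 (20 tested), the BCL-2 family (16) and targets of the antioxidant factor NRF2 (21) had medians of -0.03, -0.01 and 0.01, with 0 members at an unadjusted p under 0.05.

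No gene of the microglia lists was at an unadjusted p under 0.05, which is near the background of 0.764% higher and 1.06% lower. Of 37 tested genes of plaque-associated microglia, 29 were negative (78.4%, against 50.9% of all genes tested), with a median of -0.10. Itgax, an integrin of these cells, averaged 3.74 ± 0.841 CPM with DQ and 4.93 ± 0.479 CPM with VehD (SD, n = 4 each), at -0.39 (SE 0.27). Lgals3, a lectin of phagocytic cells, was at -0.48 (SE 0.35), Cd63, a lysosomal tetraspanin, at -0.21 (SE 0.14), and Ctsl, a cathepsin, at -0.14 (SE 0.09). Trem2, the lipid receptor that microglia need to reach this state, averaged 12.4 ± 1.18 CPM with DQ and 13.6 ± 1.22 CPM with VehD, and Cst7, a cystatin, 8.68 ± 1.59 with DQ and 9.31 ± 1.94 CPM with VehD (SD, n = 4 each). Without VehD libraries 1 and 4 the list median was 0.01. Of 18 homeostatic microglia genes 12 were negative, at a median of -0.04; the purinergic receptor gene P2ry13 was at -0.23 (SE 0.12), Gpr34 at -0.17 (SE 0.19) and Aif1, the gene of Iba1, at -0.14 (SE 0.11).

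Interferon-stimulated genes were negative in 32 of 34 (94.1%, against 50.9% of all genes tested), with a median of -0.16. None was at an unadjusted p under 0.05, near the background of 0.764% higher and 1.06% lower. The genes of a list come from the same 8 libraries and are not replicates. Ifit2, an RNA-binding effector, was at -0.23 (SE 0.12), Xaf1 at -0.35 (SE 0.22), and the RNA sensors Ifih1 and Ddx58 at -0.22 (SE 0.16) and -0.20 (SE 0.15). Their score was -0.47, 0.59, 0.12 and 0.60 in DQ libraries 1 to 4 and 0.71, 0.24, 0.52 and 0.16 in VehD libraries 1 to 4. DQ library 1 stood below all others, and without it the median of the list was 0.01. Of 18 antigen presentation genes 16 were negative (88.9%, against 50.9% of all genes tested), with a median of -0.18. The median was -0.04 without DQ library 1, -0.30 without DQ library 4 and -0.10 without VehD library 3. With DQ against Veh in WT it was -0.33.

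Reactive astrocyte genes had a median of -0.08, with 22 of 29 negative (75.9%, against 50.9% of all genes tested). None was at an unadjusted p under 0.05, where 0.764% of genes were higher and 1.06% lower. Gfap, the astrocyte filament protein, averaged 883 ± 67.7 CPM with DQ and 1000 ± 140 CPM with VehD, and C4b, a complement component, 294 ± 33.8 with DQ and 282 ± 41.3 CPM with VehD (SD, n = 4 each). H2-D1, a class I antigen presentation gene, was at -0.19 (SE 0.18) and Cd44, a hyaluronan receptor, at -0.23 (SE 0.25). All 14 dentate granule cell markers were positive, where 8037 of 16369 genes tested were. Their median was 0.14, and none was at an unadjusted p under 0.05. With VehN alone as the vehicle their median was -0.00.

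The genes that carry the model were measured in every library. App, whose count may hold reads of the transgene as well as of the mouse gene, averaged 3520 ± 156 CPM with DQ and 3230 ± 360 CPM with VehD, at 0.12 (95% interval -0.06 to 0.30). Mapt averaged 707 ± 22.4 CPM with DQ and 689 ± 18.1 CPM with VehD, and Thy1 2310 ± 105 with DQ and 2180 ± 299 CPM with VehD. All these are mean ± SD over 4 libraries in each group.

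Genes that distinguish the 3xTg line were then set beside the DQ values. They were taken from VehN 3xTg libraries against WT Veh libraries, which share no library with DQ or VehD; 1712 genes (10.5%) were called there, 765 higher and 947 lower (edgeR, adjusted p under 0.05). Of the 765 genes higher in 3xTg, 78.3% were negative with DQ, at a median of -0.07, against 50.9% of all genes tested. Of the 947 lower in 3xTg, 782 were positive with DQ, at a median of 0.07, where 8037 of 16369 genes tested were positive. These shares describe genes of the same 8 libraries, and the genes are not replicates. In the higher set 22 genes (2.88%) were lower with DQ at an unadjusted p under 0.05, where 1.06% of all genes tested were, and 0 were higher. In the lower set 15 genes (1.58%) were higher with DQ, where 0.764% of all genes tested were, and 2 were lower. The genotype differences themselves had medians of 0.41 in the higher set and -0.38 in the lower set. GC content also had a Spearman correlation of -0.476 with the genotype difference, opposite in sign to that with DQ. With the GC trend removed the DQ medians were -0.05 and 0.03, with 552 of 765 negative and 638 of 947 positive. Lists of thalamus and habenula, choroid plexus, meninges, cortex and striatum, and blood were opposite in sign between DQ and genotype. Ependymal markers were not. The medians with DQ were -0.48 for thalamus and habenula, -0.83 for choroid plexus and -0.33 for meninges. Those of VehN 3xTg against WT Veh were 0.96, 1.04 and 0.86 for these lists. Cortex and striatum markers had medians of 0.24 with DQ and -0.46 by genotype. For blood, with 4 genes tested, they were 0.49 and -0.35. Ependymal markers had the same sign in both, with medians of 0.29 with DQ and 0.05 by genotype. Whether GC content or neighbouring tissue underlies the opposite signs was not tested. With the thalamus and choroid plexus scores as covariates the DQ medians of the higher and lower sets were -0.05 and 0.05. Without VehD libraries 1 and 4 they were -0.07 and 0.09. Without VehD library 3, the library with the lowest GC slope, they were -0.04 and 0.04. The WT vehicle may differ from VehN, so genotype and vehicle cannot be told apart in the choice of these genes.

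Of the 10 genes with the smallest p by genotype, those with the smallest p for DQ were Pcdhga11, Tagap, Ccl27a and Clec7a. Pcdhga11, a clustered protocadherin that was lower in 3xTg, averaged 5.22 ± 0.719 CPM with DQ and 6.53 ± 1.26 CPM with VehD (SD, n = 4 each), at -0.32 (SE 0.11). Tagap, a GTPase activating protein of lymphocytes, was at -0.25 (SE 0.19), and Ccl27a, a chemokine gene with close copies in the mouse genome, at -0.36 (SE 0.28). Clec7a, the Dectin-1 receptor of plaque-associated microglia and higher in 3xTg, averaged 9.19 ± 0.556 CPM with DQ and 11.1 ± 2.01 CPM with VehD (SD, n = 4 each), at -0.28 (SE 0.23). None of the 4 passed the adjusted threshold for DQ.

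The last comparison asked whether DQ acted differently in 3xTg and in WT. The DQ effect in 3xTg minus that in WT passed an adjusted p of 0.05 for 0 of 16369 genes (0%; edgeR, smallest adjusted p = 0.265), with 467 at an unadjusted p under 0.05. The label of the WT vehicle does not say which vehicle it is, so a difference between vehicles cannot be told apart from a difference between genotypes. For the leading genes the difference was -0.84 (SE 0.39) for Depdc1b, -1.39 (SE 0.80) for Ube2c, 0.51 (SE 0.20) for Lzts1, 0.51 (SE 0.16) for Zfp382 and -1.97 (SE 0.65) for Brip1. Their values with DQ against Veh in WT were -0.22, -0.67, -0.02, -0.12 and 0.61 in the same order. These genes were named for their small p with DQ against VehD in 3xTg, which is a part of this difference. That choice alone moves their differences away from 0, so these values are a description and not a test.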

How the data were processed

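Per the labels' protocols, stranded mRNA kits and paired reads of 100 bases were used on female mouse hippocampi. STAR, Subread, featureCounts and mm10 appear in the submitters' processing notes; no version, annotation or strand setting is named, so counts of overlapping genes and close copies are uncertain. The deposited table, made by the authors, holds raw counts of 24062 gene symbols in 28 libraries, with 0 columns unused. Labels gave 7 groups of 4. They do not call each library a separate animal; p-values therefore measure the spread between these libraries, which may be technical.

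The main test was edgeR 4.0.16 (quasi-likelihood, R 4.3.3) on all 28 libraries with TMM factors, the filterByExpr filter (16369 genes kept, 7693 removed) and 1 coefficient per group, two-sided, with Benjamini-Hochberg adjustment in each comparison. Each SE was derived from the log2 fold change and its F statistic, and 95% intervals use the moderated t distribution. Scores used log2 CPM with a prior count of 2. GC content came from GENCODE vM21 transcripts and was known for 95.2% of genes tested. Alternatives included DESeq2 1.42.0, limma 3.58.1 and sva 3.50.0.

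The comparison, its members and the 52 lists were chosen with earlier results of these data known. Genes named are the 20 with the smallest p (none being called), Ube2c, Depdc1b and Lzts1, up to 4 members with the smallest p of each list described, and fixed genes of the model, senescence and glia. For the genotype comparison they are taken from the 10 with the smallest p. The proliferation genes at an unadjusted p under 0.05, Cdc20, Mcm5 and Src were named after their values were seen. Some items that this rule covers are not reported here. Replicate numbers were not used to pair libraries. Libraries of 1 group differed by a chi-square of at least 12.3 per degree of freedom, so none was counted as a repeat. Intervals on counts cover counting error only.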

Additional observations from a re-analysis of the deposited data

Results flagged for a closer look

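In 182 sets of 4 libraries examined (gene levels and list scores, in DQ and in VehD of 3xTg), 8 held a library far from the other 3; chance gives about 1 in 20. Zfp382 was at 13.9 CPM in DQ library 4, against 18.4 to 19.3 CPM in the other DQ libraries. Cd63 was at 87.2 CPM in the same library, against 72.3 to 74.8 CPM. Ccna2 was at 1.02 CPM in DQ library 3, against 0.555 to 0.616 CPM, and Ccl27a at 0.756 CPM there, against 1.05 to 1.11 CPM. DQ library 2 held Dlg3 at 299 CPM, against 274 to 275 CPM, and Gm8773 at 0.0231 CPM (1 count), against 0. Its thalamus and habenula score was -0.112, against -0.446 to -0.422 in the other DQ libraries. Pcdhga11 was at 8.42 CPM in VehD library 3, against 5.80 to 6.06 CPM in the other VehD libraries.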

How the results depend on the processing

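The count of 0 genes for DQ against VehD held under all 24 alternatives run, with 173 to 2113 genes at an unadjusted p under 0.05 and a lowest adjusted p of 0.114, with VehN alone as the vehicle (edgeR). Of 70 named genes refitted, 49 kept their sign under every alternative. With VehN alone as the vehicle the sign turned for Depdc1b (0.0221), Igsf3 (-0.0853), Trem2 (0.064), Cst7 (0.0862), Cdkn1b (-0.0406), Srms (0.0167), P2ry13 (0.0834), Gpr34 (0.00536), Pcdhga11 (0.0415), Tagap (0.13), Ccl27a (0.32) and Clec7a (0.033). Medians moved with it to -0.0536 for proliferation, 0.0852 for homeostatic microglia, -1.17 for thalamus, 0.18 for postsynaptic, -0.00216 for dentate, -0.15 for genes higher and 0.17 for genes lower in 3xTg; with the mean of VehD and VehN the lower set stood at 0.12. Without VehD libraries 1 and 4 (chosen after seeing the data) the sign turned for Thy1 (-0.0379), Cd63 (0.0281), Lgals3 (0.13), Shox2 (0.30), Gbx2 (1.66), Tcf7l2 (0.11) and Rgs16 (0.071), and medians moved to 0.0653 for the secretory list, 0.0125 for plaque-associated microglia, 2.78 for choroid plexus and 0.11 for NRF2 targets. With thalamus and choroid plexus scores as covariates (also added later) Thy1 was at -0.00203 and Cdkn1a at 0.0412. With a mean of at least 50 counts the proliferation median was -0.0394. Leaving out 1 library gave C4b -0.024 to 0.121, Cdkn1a -0.115 to 0.0696 and Cst7 -0.229 to 0.0102, and Cdkn2a differences of -0.0951 to -0.0655 CPM. It gave list medians of -0.139 to -0.0516 for the secretory list, -0.142 to -0.0273 for plaque-associated microglia, -0.128 to -0.031 for reactive astrocytes, -0.729 to -0.223 for thalamus, 0.0827 to 0.181 for dentate and 0.00249 to 0.0826 for new neurons. Without any 1 DQ library the exact permutation p of Cdkn2a was 0.0571. The DQ effect in 3xTg minus that in WT had 1 gene, Cthrc1 (named after its value was seen), with DESeq2, with 1 surrogate variable and with the scores as covariates. Genotype calls were 220 with only the libraries compared and 549 to 3131 with 1 library left out. With each gene taken relative to its group mean, same-numbered DQ and VehD libraries correlated at -0.142, -0.0655, 0.0361 and 0.232. Values centred within groups of 4 cannot decide whether the numbers mark pairs, and they were not taken as pairs. With a replicate block DQ calls stayed at 0 (353 at an unadjusted p under 0.05, and 603 with only the 8 libraries). Genotype calls were then 2781 with all 28 libraries. The causes of these moves were not tested. Low counts limit the cell division genes: 3.12% of genes under log2 CPM 0 had an interval within a 1.5-fold change.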
